A study of Mus musculus with 4 samples.

Results

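Zfp36, Zfp36l1 and Zfp36l2 encode RNA-binding zinc finger proteins, and Btg1 and Btg2 encode antiproliferative adaptors, all of which are known for holding lymphocytes at rest. Their counts were followed in 4 libraries of mouse primary cells. The members were chosen by name and position. They were the 5 genes above, Gm26669, which is annotated on the strand opposite to Zfp36l1, and any gene whose exons overlap one of these on the opposite strand. That last step added Gm44710, opposite to Zfp36, and gave 7 genes of the 50600 in the tables.

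All 4 samples are labelled as T-helper 2 cells of strain C57BL/6NJ and are numbered as biological replicates 1 to 4. They form 1 group with no control, treatment or second genotype. A time of 0 hours in a course of Th1 and Th2 cells stands in the file headers but not in the labels. Age is given as unknown, sex as not collected, and the samples share 1 donor identifier, so whether they came from separate animals is not known and the spread given below may be technical. The libraries held 1452053 to 2351916 counts, and 87.6 to 89.6% of these lay in genes with an exon overlap on the opposite strand. Of 10 T cell genes all 10 reached a mean of 1 TPM, against 34% of protein-coding genes. TPM divides counts by exon length and scales them to the same total in each library. Of 4 Th2 genes Gata3 had 5.87 ± 2.08 TPM, beneath its opposite gene Gm13256 at 466 ± 80.1 TPM (SD, n = 4). The cytokine gene Il4 had 7.96 ± 5.76 TPM, and the cytokine genes Il5 and Il13 had no count. Cd79b and Ms4a1 of B cells and Lyz2 and Adgre1 of myeloid cells had no count. Cd79a of B cells had 39.0 ± 3.91 TPM, and Csf1r of myeloid cells, which overlaps Hmgxb3, had 107 ± 10.7. These marker values, too, are counts on the annotated strand, and a count of 0 there was not read as absence of a cell type. In bulk samples fewer cells of a type and less RNA per cell cannot be told apart in any case.

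Zfp36 proteins bind AU-rich elements in the 3′ untranslated regions of mRNAs, many of them mRNAs of cytokines and early response genes, and bring the Ccr4-Not deadenylase complex to them, which shortens the poly(A) tail and starts decay. Btg1 and Btg2 bind the deadenylase subunits Cnot7 and Cnot8 of the same complex and promote deadenylation more broadly. In T cells both families are known as brakes on activation and on exit from quiescence. Gm26669 and Gm44710 are annotated as non-coding, and no function is given for them here.

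A count in these tables stands for 1 fragment that matched a gene on its annotated strand. How the kit marks strand is not given in the sources used here, but the mitochondrial genes bear on it. mt-Nd6, the sole mitochondrial mRNA gene on its strand, had 31257 ± 4872 counts, against 2348 ± 699 for the other 12 mRNA genes together (SD, n = 4). Of the fragments counted in the mitochondrial mRNA genes, most lay on the strand opposite to that of the other 12. If the same holds elsewhere, the fragments on an opposite-strand gene stand for the RNA of its partner where their exons overlap, and the counts under a gene's own name do not measure its transcript. Every count, TPM, rank and share below is therefore given for the annotated strand and was not read as a transcript level. Where no gene is annotated on the other strand, fragments of that strand are not in the tables.

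The paired zinc fingers are the part of these proteins that binds RNA. The coding bases of the paired zinc fingers are shown because near-identical sequence could split fragments between the genes. The stretches run from the first cysteine codon of the first finger to the histidine codon of the second, in the direction of transcription on mm10. Capitals mark the codons of the 3 cysteines and 1 histidine that hold the zinc in each finger. All 3 genes lie on the minus strand.
Zfp36, chr7:28378044-28378217: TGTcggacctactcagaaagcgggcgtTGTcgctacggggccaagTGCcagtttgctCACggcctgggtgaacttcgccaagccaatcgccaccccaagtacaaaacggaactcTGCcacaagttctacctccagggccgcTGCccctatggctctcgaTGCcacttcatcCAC
Zfp36l1, chr12:80110075-80110248: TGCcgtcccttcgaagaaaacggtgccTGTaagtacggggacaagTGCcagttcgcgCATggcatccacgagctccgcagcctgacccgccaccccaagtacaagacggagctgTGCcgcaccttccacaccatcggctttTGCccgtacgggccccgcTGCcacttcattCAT
Zfp36l2, chr17:84186554-84186727: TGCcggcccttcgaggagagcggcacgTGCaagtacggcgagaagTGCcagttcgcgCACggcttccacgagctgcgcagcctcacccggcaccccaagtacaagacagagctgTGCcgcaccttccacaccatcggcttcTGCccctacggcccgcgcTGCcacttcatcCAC

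Each stretch has 174 bases, or 58 codons with a linker of 18 codons between the fingers. Zfp36l1 and Zfp36l2 share 152 of the 174 bases (87.4%) and 54 of the 58 codons at the level of the amino acid (93.1%). Zfp36l1 shares 118 bases (67.8%) with Zfp36, and Zfp36l2 shares 120 (69.0%). Over the whole transcripts, the longest identical run was 32 bases between Zfp36l1 and Zfp36l2, 17 between Zfp36l1 and Zfp36, 18 between Zfp36l2 and Zfp36, and 20 between Btg1 and Btg2. No exon of Gm26669 or Gm44710 covers any base of the zinc finger stretches of Zfp36l1 and Zfp36.

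Gm26669 held most of the fragments of the set. It had 10875, 9174, 9367 and 6536 counts in replicates 1 to 4. This was 4594 ± 524 CPM (counts scaled to the library total) and 92.2 to 95.7% of the counts of all 7 members (SD, n = 4). By mean CPM it ranked 13th of the 50600 genes, and by mean TPM, at 3836 ± 327, it ranked 27th. With the strands turned, the fragments in the bases it shares with Zfp36l1 would belong to Zfp36l1, so the ranks are those of the locus on this strand and not of a transcript. Gm26669 (ENSMUSG00000097417.1, chr12:80108034-80113000) lies on the plus strand of mm10, with 2 exons and 1808 exon bases.

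Zfp36l1 (ENSMUSG00000021127.7, chr12:80107754-80113013, minus strand) had 21, 30, 16 and 11 counts in replicates 1 to 4. In every library Gm26669 was far above Zfp36l1, and their ranges did not overlap. The counts of Gm26669 exceeded those of Zfp36l1 518-, 306-, 585- and 594-fold in replicates 1 to 4. Per kb of exon, Gm26669 had 4971 ± 997 counts against 6.52 ± 2.71 for Zfp36l1 (SD, n = 4). From the summed counts the difference in density was 762-fold, with an exact (Clopper-Pearson) 95% interval of 611 to 965 that covers counting error only. On the log2 scale it was 9.60 ± 0.44, positive in 4 of 4 libraries (exact two-sided sign-flip permutation p = 0.125, adjusted p = 0.125 over both pairs). With 4 libraries this test cannot give a lower p.

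**Figure D1:**
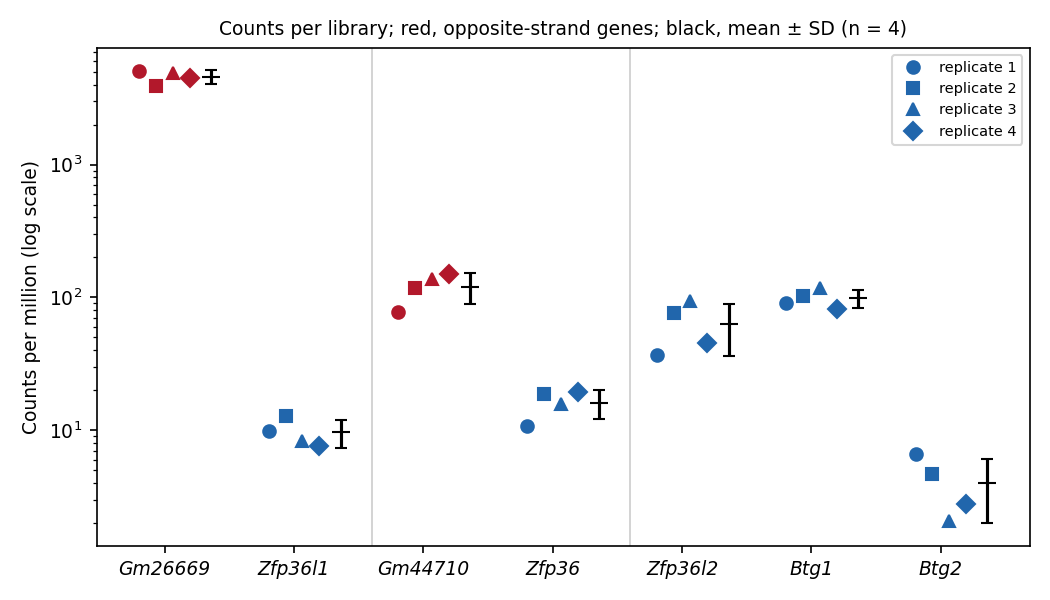
CPM of the 7 genes in each library, on a log axis, with each opposite-strand gene left of its partner and the genes without one at the right. Symbols mark replicates 1 to 4 and black bars the mean ± SD. Gm26669 lies between 3901 and 5103 CPM, against 7.58 to 12.8 CPM for Zfp36l1.

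The annotated exons of Gm26669 cover the ends of Zfp36l1 and leave its middle open. Of the 1808 exon bases of Gm26669, 1672 (92.5%) lie on exon bases of Zfp36l1, and these make up 55.9% of the 2990 exon bases of Zfp36l1. In the transcript Zfp36l1-201 the covered bases are 1490 of 1835 in the 3′ untranslated region (81.2%), 125 of 138 in the 5′ untranslated region (90.6%) and 57 of 1017 coding bases (5.60%). The tables give 1 count per gene, so how the 35952 fragments of Gm26669 divide between its exons cannot be told from them. The last exon of Gm26669 ends 13 bases inside the annotated start of Zfp36l1. The promoter of Zfp36l1 is shown for that reason, from 250 bases before to 30 bases after the start. It is read on the minus strand, comes from the RefSeq promoter table (GRCm38.p6, the assembly of mm10), and has the 17 bases that lie within Gm26669 in capitals.
Zfp36l1 promoter, chr12:80112984-80113263: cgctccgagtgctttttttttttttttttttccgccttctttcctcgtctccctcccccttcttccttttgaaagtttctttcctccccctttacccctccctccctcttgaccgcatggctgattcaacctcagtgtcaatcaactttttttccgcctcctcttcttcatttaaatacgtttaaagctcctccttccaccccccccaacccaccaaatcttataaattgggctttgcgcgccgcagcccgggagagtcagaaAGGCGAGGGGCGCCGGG

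The 3′ untranslated region of Zfp36l1 that Gm26669 covers also holds its AU-rich heptamers. TATTTAT is the DNA form of the core that Zfp36 proteins bind, and it was searched on the strand of the transcript. The 3 matches in Zfp36l1 lie 1149, 1190 and 1404 bases after the stop codon, and all 3 fall within an exon of Gm26669. Since Gm26669 covers 81.2% of that region, their place within it was not read as a gathering of the heptamers there. They are shown with 7 bases on each side and the heptamer in capitals.
Zfp36l1, chr12:80108426-80108446: caaaacgTATTTATtgccaaa
Zfp36l1, chr12:80108385-80108405: ttgttcaTATTTATcgggatg
Zfp36l1, chr12:80108171-80108191: gttggatTATTTATtttagaa

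Zfp36 and Zfp36l2 each had 3 such heptamers in the 3′ untranslated region of their main transcripts, Btg2 had 1 and Btg1 had none in 4166 bases. The first of Zfp36 lies 574 bases after the stop codon (chr7:28376970-28376990, minus strand), as ggcccttTATTTATgacgact. The one in Btg2 lies 102 bases after it (chr1:134077253-134077273, minus strand), as gaagagcTATTTATacatgtt. Of 20659 protein-coding genes, taking for each the transcript with the longest 3′ untranslated region, 28.1% hold at least 1. Among those with a region of 1 to 2 kb, as in Zfp36l1 and Zfp36l2, 33.3% do. The share with 3 or more was not computed. A match is a description of the sequence, and binding was not measured.

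Zfp36 encodes tristetraprolin, the founding member of the family. Its opposite gene Gm44710 (ENSMUSG00000109455.1, chr7:28378980-28392514, plus strand), with 471 exon bases, had 164, 275, 263 and 216 counts in replicates 1 to 4, or 385 ± 102 TPM (SD, n = 4). Zfp36 (ENSMUSG00000044786.6, chr7:28376784-28380253, minus strand) had 23, 44, 30 and 28 counts, or 7.05 ± 1.84 TPM. Gm44710 was above Zfp36 in each library, by 6.25- to 8.77-fold in counts.

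Per kb of exon, Gm44710 had 487 ± 107 counts against 9.01 ± 2.59 for Zfp36 (SD, n = 4). From the summed counts the difference in density was 54.1-fold (exact 95% interval 44.8 to 65.8), and on the log2 scale 5.75 ± 0.20, positive in 4 of 4 libraries (exact sign-flip permutation p = 0.125, adjusted p = 0.125). Without the division by length the log2 difference was 2.87, because Gm44710 has few exon bases. Of the pair's fragments 88.0% lay on Gm44710 and 11.95% ± 1.49 on Zfp36. At the other locus 99.8% lay on Gm26669 and 0.214% ± 0.0753 on Zfp36l1. With the strands turned, these shares would change places only for the fragments in the shared bases, at both loci. Shared bases made up 92.5% of the exon bases of Gm26669 and 26.5% of those of Gm44710.

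The overlap at Zfp36 is of another kind than the one at Zfp36l1. The exons of Gm44710 and Zfp36 share 125 bases, 3.602% of the 3470 exon bases of Zfp36 and 26.5% of those of Gm44710. None of the 125 bases is in an exon of the spliced transcript Zfp36-201. They lie in its intron and in the 5′ untranslated part of an annotated transcript of 1 exon that reads through that intron. The second exon of Gm44710 overlaps 64 bases of Med29, a Mediator subunit gene on the same strand as Zfp36, which had 4, 8, 19 and 2 counts. Paf1, an elongation factor gene 437 bases away on the same strand as Gm44710, had 42.1 ± 9.40 CPM. Which of these loci the fragments of Gm44710 came from was not tested.

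**Figure D2:**
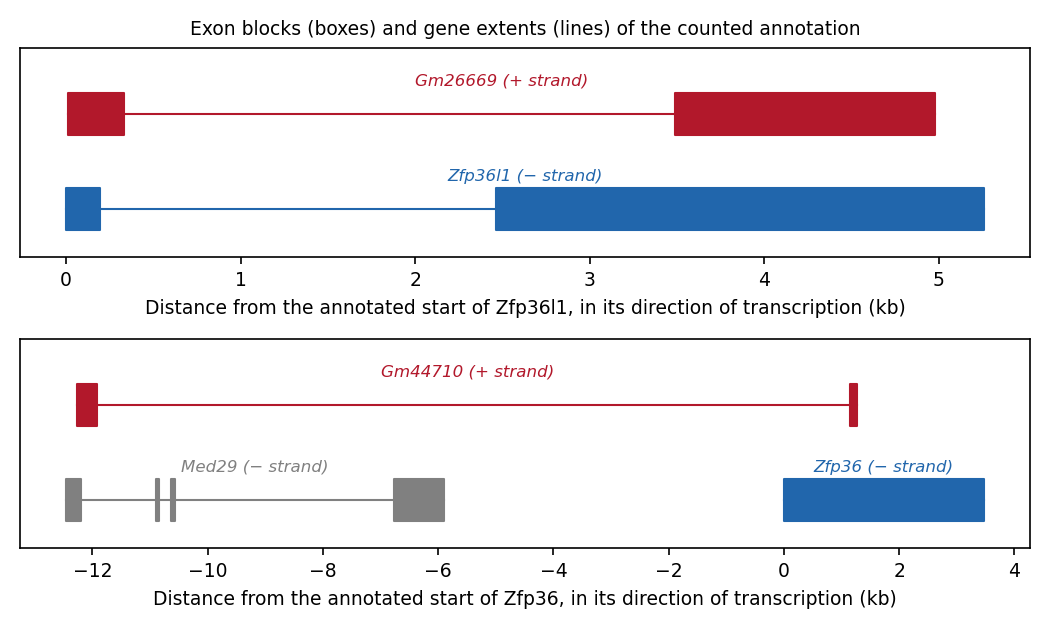
Exon blocks as counted, drawn by distance in kb from the annotated start of Zfp36l1 (top) and of Zfp36 (bottom), with opposite-strand genes in red above. Both exons of Gm26669 lie over Zfp36l1 (1672 shared bases), whereas Gm44710 reaches from inside Zfp36 (125 shared bases) to Med29 (64 shared bases).

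An opposite gene of higher density was the usual case in these tables, in the same direction as the excess of mt-Nd6 over the other mitochondrial mRNA genes, so it was not read as an excess of antisense RNA. Over 1233 pairs of a protein-coding gene and a gene of another type with at least 100 opposite exon bases in common and a summed mean of at least 20 counts, the opposite gene was denser in all 4 libraries in 85.3%. That both pairs here had this direction is therefore near the background. The sizes differed. The median log2 ratio was 5.87, with quartiles of 3.09 and 7.68. Gm26669 over Zfp36l1 was exceeded by 91 of the 1233 pairs, and Gm44710 over Zfp36 by 639.

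**Figure D3:**
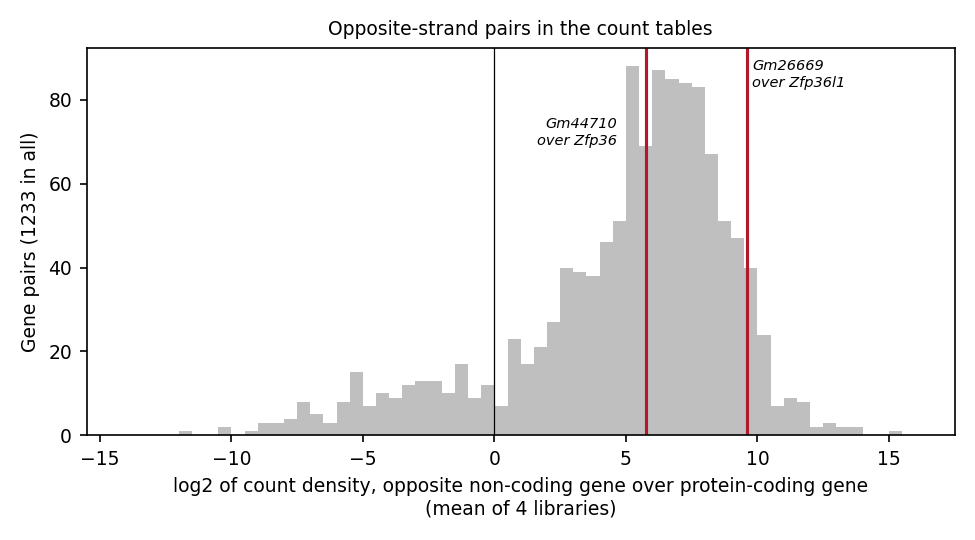
Log2 count density of the opposite gene over the protein-coding gene for 1233 pairs (grey bars, mean of 4 libraries, counts of pairs on the y axis), with red lines at the ratios of the members and a black line at equal density. Gm26669 over Zfp36l1, at 9.60, lies in the upper tail, and Gm44710 over Zfp36, at 5.75, lies near the median of 5.87.

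Zfp36l2, Btg1 and Btg2 stand alone, since no gene of the opposite strand lies within 5 kb. The nearest opposite genes were 203 kb, 21.3 kb and 26.9 kb away and had no count in any library. Fragments on the other strand of these genes are therefore not in the tables.

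Zfp36l2 encodes another zinc finger protein of the family, which acts in lymphocyte development (ENSMUSG00000045817.8, chr17:84183931-84187947, minus strand, 3530 exon bases). It had 78, 179, 181 and 66 counts, or 15.4, 34.1, 39.3 and 19.5 TPM in replicates 1 to 4. Replicates 2 and 3 were above replicates 1 and 4, and the highest CPM was 2.57 times the lowest. Btg1 (ENSMUSG00000036478.8, chr10:96617006-96622809, plus strand, 5276 exon bases) had 194, 240, 228 and 119 counts, or 25.6, 30.6, 33.1 and 23.5 TPM. Its libraries lay closer together, with a ratio of 1.45 between the highest and the lowest CPM. Btg2, which p53 is known to induce (ENSMUSG00000020423.6, chr1:134075170-134079120, minus strand, 2743 exon bases), had 14, 11, 4 and 4 counts, or 3.55, 2.70, 1.12 and 1.52 TPM. Its 33 counts in all have an exact 95% Poisson interval of 22.7 to 46.3.

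Within the genes of like position Btg1 and Zfp36l2 were near the top. Of the 9611 protein-coding genes that stand alone in this way, 99.2% had a lower mean TPM than Btg1, 99.2% a lower one than Zfp36l2 and 88.8% a lower one than Btg2. In that class 19.4% of the genes reached 1 TPM and the median was 0. Zfp36 and Zfp36l1 were set among the 4801 protein-coding genes with an opposite exon overlap. There 68.5% had a lower TPM than Zfp36 and 63.4% a lower one than Zfp36l1, in a class with a median of 1.84 TPM. These ranks describe counts on the annotated strand.

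**Figure D4:**
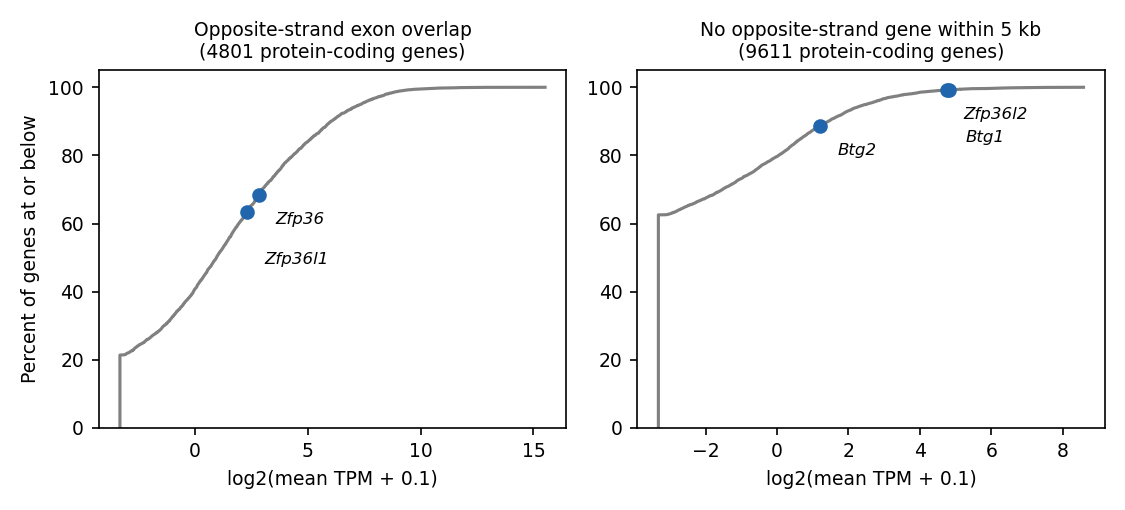
Cumulative percent of protein-coding genes by log2(mean TPM + 0.1), for genes with an opposite-strand exon overlap (left) and for genes that stand alone on that strand for 5 kb (right), with the members as blue points. Zfp36l2 and Btg1 lie above 99.2% of their class and Zfp36 above 68.5% of its class.

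Ordered by mean TPM, the members ran from Gm26669 through Gm44710, Btg1, Zfp36l2, Zfp36 and Zfp36l1 to Btg2. Each step was compared within libraries on the log2(TPM + 0.1) scale by the exact sign-flip permutation, adjusted over 6 steps. The order was taken from the same TPM values, so the sorting largely set the sign of each mean step. The tests therefore add no support for the order, and the steps are a description. The steps from Gm26669 to Gm44710 (3.36 ± 0.51), Gm44710 to Btg1 (3.74 ± 0.45), Zfp36l2 to Zfp36 (1.86 ± 0.56) and Zfp36l1 to Btg2 (1.20 ± 0.55) kept 1 sign in 4 of 4 libraries, each with p = 0.125 and adjusted p = 0.188 by that exact test, so none could pass 0.05 (SD, n = 4). Btg1 and Zfp36l2 did not differ beyond their spread, at 0.15 ± 0.45 (Btg1 minus Zfp36l2) with Btg1 higher in 2 of 4 libraries and an exact permutation p = 0.625. Without replicate 1 that difference turned to -0.044. Zfp36 was above Zfp36l1 in 3 of 4 libraries, by 0.51 ± 0.51 (exact permutation p = 0.25, adjusted p = 0.3). On TMM-scaled CPM, not divided by length, the step from Gm26669 to Gm44710 was 5.30, that from Gm44710 to Btg1 shrank to 0.25 (exact permutation p = 0.5), and that from Btg1 to Zfp36l2 was 0.73 (exact permutation p = 0.125).

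All 7 members had a mean of 1 TPM or more, against 21.6% of all genes and 34% of protein-coding genes. Each of the 7 also reached 1 TPM in every library. The lowest single value was that of Btg2 in replicate 3, at 1.12 TPM from 4 counts.

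No member was called more variable between libraries than other genes of like count. Spread was not compared between members. It was judged with an intercept-only quasi-likelihood fit in edgeR over 5755 genes, which called 16 genes (0.278%) more variable than the trend at an adjusted p of 0.05. Of the 6 members tested, 0 were called, and 2 had an unadjusted p under 0.05. These were Zfp36l2 at 3.90 times the trend (above 98.8% of the genes tested, unadjusted p = 0.00846, edgeR adjusted p = 0.673) and Gm44710 at 3.24 times (above 97.6%, unadjusted p = 0.0210, edgeR adjusted p = 0.865). Across all genes tested, 285 had an unadjusted p under 0.05. Btg2 had too few counts to enter this fit, and with 4 libraries the lack of a call does not show an ordinary spread. With DESeq2 size factors 0 members were called as well.

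Genes of the closest level and profile were found by the root mean square difference in log2(TPM + 0.1) over the 4 libraries, as a description. For Gm26669 they were Gm44709 (0.061), Gm47767 (0.092) and Gm28033 (0.099), which overlap the coding genes Supt5, Actn1 and Ppp1r18 on the opposite strand. For Gm44710 they were Gm44877, Gm15350 and 4933408J17Rik (0.26 to 0.29), all with opposite exon overlap. For Zfp36 they were Gm45615, Cd37 and Smap2, for Btg1 Sf3b2, Supt6 and Ddx49, and for Zfp36l2 Wbp4, E030018B13Rik and Cnn2, at 0.065 to 0.24. Zfp36l1 and Btg2 averaged fewer than 20 counts and were not compared in this way.

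The other genes of both families were low or without counts. Tob2 and Tob1, antiproliferative relatives of Btg1, had 2.19 ± 1.12 and 1.22 ± 0.775 TPM from 47 and 15 counts in all (SD, n = 4). Btg3 had 6 counts in all, or 0.858 ± 0.717 TPM. Zfp36l3, which in mouse is known from placenta, and Btg4, known from oocytes, had no count, and the limit that a count of 0 sets was 1.28 to 2.07 CPM in single libraries (3 counts, counting error only). None of these 5 overlaps an exon on the opposite strand.

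Genes of the Ccr4-Not complex and of other factors that act on the poly(A) tail mostly had counts on their annotated strand. Of 15 genes of the Ccr4-Not and Pan complexes, with Parn and the poly(A)-binding protein gene Pabpc1, 13 had a mean of 1 TPM or more, against 34% of protein-coding genes, and the list median was 2.16 TPM. Pabpc1 was highest at 26.0 ± 5.76 TPM, followed by Cnot3, a regulatory subunit gene, at 20.9 ± 4.26, which overlaps Leng1, and the catalytic subunit gene Cnot8 at 8.04 ± 4.29 (SD, n = 4). Cnot7, which encodes the other Btg-binding catalytic subunit, had 1.63 ± 0.859 TPM. The lowest were Cnot4 at 0.915 ± 0.112 and Pan2 at 0.824 ± 0.318. For all 5 of these genes with an opposite exon overlap (Cnot1, Cnot2, Cnot3, Cnot7 and Cnot9), the opposite gene had the higher TPM. Among the opposite genes, Leng1, Usp37 and Zdhhc2 are protein-coding, and no background share was computed for such pairs. For pairs with a gene of another type that share was 85.3%, by density in all 4 libraries. The direction was therefore not read as a result about these genes. Usp37 had 3.89 ± 1.04 TPM, against 2.91 ± 0.550 for Cnot9. Zdhhc2, opposite to Cnot7, had 57.4 ± 5.05 TPM.

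Decapping and decay genes, which act after deadenylation, reached 1 TPM in 7 of 9 cases, against 34% of protein-coding genes. Their median was 1.49 TPM. Edc3, an enhancer of decapping, stood far above the rest at 377 ± 12.4 TPM. It overlaps 1284 exon bases of Clk3, which had 31.7 ± 4.73 TPM. With the strands turned, the fragments of Edc3 in the shared bases would belong to Clk3. Ddx6 had 7.19 ± 1.32 TPM, Lsm1 6.06 ± 1.30, Dcp1b 0.590 ± 0.477 and the decapping enzyme gene Dcp2 0.435 ± 0.556 (SD, n = 4). Of 11 other genes for RNA-binding regulators 9 reached 1 TPM, against the same 34%, at a median of 1.66 TPM. Hnrnpd, which also binds AU-rich elements, had 6.92 ± 2.32 TPM, beneath its opposite gene Gm17092 at 1279 TPM. Pum2 had 3.93 ± 1.04, Khsrp 3.57 ± 1.497, Tia1 0.726 ± 0.245 and Rc3h2 0.509 ± 0.195 TPM.

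Known mRNA targets of Zfp36 proteins fell into genes with counts and genes with none. Of 15, 6 reached 1 TPM and 6 had no count in any library, at a list median of 0.152 TPM. Among protein-coding genes 34% reached 1 TPM, so the share of targets that did was near the background. The early response gene Fos had 9 to 42 counts per library, or 9.77 ± 5.14 TPM, Myc had 8.07 ± 1.71 and the survival gene Bcl2 4.17 ± 1.69 (SD, n = 4). Ier3, Cxcl2, Csf2, Il3, Ifng and Ptgs2 had no count, and Il2 had 1. Opposite to Bcl2, D630008O14Rik had 620 ± 99.4 TPM. Notch1 had 2.29 ± 0.575 TPM, and 0610009E02Rik, opposite to it, had 796 ± 69.8 TPM. Opposite to the cytokine gene Csf2, Gm12223 had 12 counts in all, and Csf2 itself had none.

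Other genes of T cell quiescence reached 1 TPM in 12 of 16 cases, against 34% of protein-coding genes, at a median of 4.12 TPM. That background share was 57.9% for protein-coding genes with an opposite exon overlap and 19.4% for those that stand alone. For those with an opposite-strand gene within 5 kb but no exon overlap it was 37.4%. The lists mix these classes. The highest were Tsc2 at 167 ± 16.2 TPM, Txnip at 29.5 ± 10.5 beneath its opposite gene Gm15441, and Slfn2 at 18.6 ± 11.2 (SD, n = 4). Tsc2, a brake on mTOR, overlaps exons of Pkd1, which had 4.91 ± 1.26 TPM. With the strands turned, the fragments of Tsc2 in the shared bases would belong to Pkd1. Cdkn2c, a cell cycle inhibitor gene, had 0.536 ± 0.833 TPM from 8 counts, and Foxj1 had none. Btg1 at 28.2 ± 4.42 TPM and Zfp36l2 at 27.1 ± 11.4 were above 14 of these 16 genes.

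**Figure D5:**
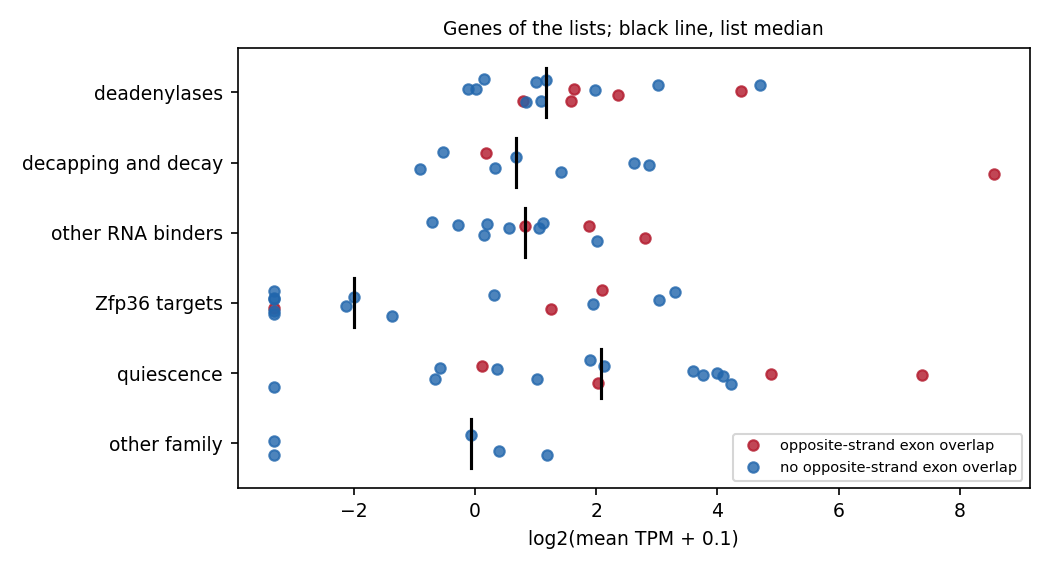
Log2(mean TPM + 0.1) of each gene of 6 lists, with red points for genes that overlap an exon on the opposite strand and blue points for the others, spread vertically for legibility. Black lines are list medians. The Zfp36 target list has the lowest median (0.152 TPM) and the quiescence list the highest (4.12 TPM).

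The 4 members with a promoter in the RefSeq table (Zfp36, Zfp36l1, Btg1 and Btg2) shared no motif of those searched. Windows of 250 bases before to 50 after the start were searched on both strands, with shares over 32851 promoters. TATAAA was present in Zfp36l1 and Btg1 (13.6% of all promoters). The CArG box, bound by serum response factor, was present in Zfp36 (1.63%). TGACGTCA, the cyclic AMP response element, was present in Btg2 (1.79%). GGGCGG, the GC box, was present in Zfp36, Btg1 and Btg2 (35.7%), and TGACTCA, the AP-1 site, in none of the 4 (5.20%). These are matches of letters, and no factor was measured.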

How the data were processed

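Each of the 4 samples has 1 deposited table of raw counts. The authors made it with featureCounts 1.4.6-p4, per the file headers, from read pairs over GENCODE mouse release 13 exons (mm10), with strand setting 1 and both ends aligned, and did not normalise the counts. The library kit is not given in the sources used here. Gene symbols were matched by identifier for 50376 of 50600 genes, and transcripts and gene types came from GENCODE mouse release 21, whose exons equal the counted ones for the 5 coding members. Members and lists were chosen with earlier results of these data known.

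TPM was computed here from counts and exon length, without correction for fragment length, and 0.1 TPM was added before log2 values were taken. Density ratios had 0.5 counts added. Overlaps came from bedtools 2.31.1. Ratios and steps were tested by exact two-sided sign-flip permutation (2 of 16 sign patterns are most extreme), with Benjamini-Hochberg adjustment. Spread was fitted with edgeR 4.0.16 (filterByExpr, TMM) in R 4.3.3, and checked on simulated data, with DESeq2 1.42.0 size factors as an alternative. Named list genes were the 3 highest and 2 lowest of each list. Other list genes named (Cnot7, the overlapping Ccr4-Not genes, Notch1 and the targets given at 0 or 1 count) and the promoter motifs were chosen after their values were seen. No library was a copy of another, with a chi-square of 6.29 to 24.8 per degree of freedom over 6 pairs.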

Additional observations from a re-analysis of the deposited data

Results flagged for a closer look

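Over 47 values in the 4 libraries, 3 had 1 library farther from the other libraries than Dixon's limit for groups of 4, and chance flags about 1 in 20. None of the 3 was a member. Pabpc1 had 34.6 TPM in replicate 2, against 22.3 to 23.9 in the other libraries. Bcl2 had 6.69 TPM in replicate 2, against 3.18 to 3.53 in the others. Tsc2 had 191 TPM in replicate 3, against 157 to 160 in the others.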

How the results depend on the processing

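Of 82 alternative values, 77 were labelled as unchanged. For a difference this meant the same sign, whatever its size, and its p was not part of the label. The step from Gm44710 to Btg1 was so labelled although it fell from 3.74 to 0.25 on TMM-scaled CPM, not divided by length. A change from 16 to 15 genes called was labelled as unchanged too. Requiring 100 shared bases kept both pairs and returned identical ratios, so that setting tested nothing. No permutation test could pass the threshold in any setting. The exception among member differences was Btg1 minus Zfp36l2, 0.15 in all libraries, which turned to -0.044 without replicate 1, and ranged up to 0.28 when single replicates were left out. Gm26669 over Zfp36l1 ranged from 9.51 to 9.82 and Gm44710 over Zfp36 from 5.67 to 5.83 when 1 replicate was left out. The 16 genes that edgeR called more variable became 7 without replicate 1, 9 without replicate 2, 10 without replicate 3 and 8 without replicate 4, and no member was called in any setting. The cause was not tested. No paired analysis was possible because there is 1 group. Depth limits Btg2 and Zfp36l1, where 1 count is worth 0.425 to 0.689 CPM.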

Other observations

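Genes that flank the members were counted as well. Plekhg2, 4.18 kb from Zfp36 on the same strand, had 56, 75, 73 and 78 counts in replicates 1 to 4, more than Zfp36 in each library. Thada, 2.11 kb from Zfp36l2, had 22, 21, 31 and 15. On the strand of Gm26669, 1300014J16Rik at a distance of 2.86 kb had 3, 7, 12 and 5 counts and Gm47752 at 6862 bases had none, so neither neighbour had counts near those of Gm26669.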
